A study of Caenorhabditis elegans with 2 samples.

Results

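The regions described here are the GC-rich members of the list of ranked ChIP-seq regions that the authors compared between replicates. A region was a member when G and C made up 55% or more of the window that reaches 100 bp to either side of its summit, which was the case for 1238 of 71547 regions (1.73%, 95% Wilson interval 1.64 to 1.83%). The rule used the genome sequence alone, so the signals, gene locations and words below were not part of it, apart from base composition itself. Intervals cover counting error only, and regions are not replicates, so no p-value over regions is given.

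Chromatin immunoprecipitation followed by sequencing was performed on whole young adult Caenorhabditis elegans, 64 hours of age, that had been synchronised as starved first-stage larvae after bleaching. All worms were of strain RW12238, in which a CRISPR insertion gives nfya-2::TY1::EGFP::3xFLAG, and the labels describe the antibody both as anti-GFP and by the name nfya-2. The 2 libraries are biological replicates of this single group, and no untagged strain, other stage or other genotype was analysed here. The label whole organism covers every tissue of the animal, so binding in few cells and weak binding in many cells cannot be told apart.

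NF-Y is a transcription factor of A, B and C subunits: the B and C subunits form a histone-like pair, and the A subunit joins them and contacts the CCAAT box in promoters. In C. elegans nfya-1 and nfya-2 both encode A subunits, and nfyb-1 and nfyc-1 encode the partners. The worm genome is rich in A and T. A ranked list is made before any threshold, so that weak candidate regions can be compared between replicates, and most of its entries are not called as peaks.

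The 3 strongest members held the longer NF-Y consensus around CCAAT close to the summit, and many of those that follow held the word CGCGC without it. Among the 3 strongest, the windows at mdt-26 and hsp-3 held CGCGC as well, outside the bases printed here. The stretches printed here are the consensus or the window of those 3, and windows of 4 of the next strongest promoter members without the consensus. All are the plus strand of WBcel235 (the sequence of ce11), read from 5′ to 3′, with CCAAT and CGCGC on either strand in capitals. The first 2 are 29 bases around the consensus, at chrII:5661090-5661118 and chrX:6092160-6092188. The others are whole windows, at chrV:6100712-6100912, chrIII:13643655-13643855, chrIII:10270846-10271046, chrII:11960750-11960950 and chrII:14251457-14251657.
mdt-26 promoter site: aggcgtggccagCCAATcagcgcactgca
hsp-3 promoter site: agagtcattcggCCAATcggcgagcgccg
crt-1 promoter window: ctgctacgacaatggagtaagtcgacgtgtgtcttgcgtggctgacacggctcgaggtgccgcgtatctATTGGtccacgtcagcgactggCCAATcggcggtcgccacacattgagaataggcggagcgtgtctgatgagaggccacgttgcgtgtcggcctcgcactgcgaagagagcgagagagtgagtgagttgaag
set-16 and drr-2 promoter window: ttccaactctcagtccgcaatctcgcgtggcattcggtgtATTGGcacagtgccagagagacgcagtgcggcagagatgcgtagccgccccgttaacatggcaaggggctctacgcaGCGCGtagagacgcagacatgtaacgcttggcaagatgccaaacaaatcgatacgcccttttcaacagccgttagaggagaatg
cnk-1 promoter window: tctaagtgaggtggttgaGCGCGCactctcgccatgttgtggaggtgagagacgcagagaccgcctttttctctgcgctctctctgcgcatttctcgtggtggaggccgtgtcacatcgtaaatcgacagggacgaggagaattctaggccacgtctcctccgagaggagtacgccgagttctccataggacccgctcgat
snoRNA gene W03C9.9 window: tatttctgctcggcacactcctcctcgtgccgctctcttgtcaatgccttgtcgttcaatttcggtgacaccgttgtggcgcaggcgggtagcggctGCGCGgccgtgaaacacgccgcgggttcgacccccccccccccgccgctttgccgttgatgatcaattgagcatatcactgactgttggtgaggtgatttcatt
Y54G11A.2 promoter window: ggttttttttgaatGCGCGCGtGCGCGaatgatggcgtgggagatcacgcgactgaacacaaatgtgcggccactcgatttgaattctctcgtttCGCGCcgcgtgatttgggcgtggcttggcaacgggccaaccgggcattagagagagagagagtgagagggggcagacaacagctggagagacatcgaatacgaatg

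Collagen coding sequence and short repeats held many other members, and examples of these are shown. The col-124 window (chrIV:10217076-10217276) lies in collagen coding sequence, and capitals mark CCAGGA, which spells proline and glycine when read in frame. The intron window (chrIV:1831317-1831517), in cmk-1, is a short repeat and holds neither CCAAT nor CGCGC. The tandem repeat window (chrII:696851-697051) is the strongest member of the largest family of members that share sequence, with GAGACC in capitals. Both repeats and the collagen window are the plus strand of WBcel235.
col-124 coding window: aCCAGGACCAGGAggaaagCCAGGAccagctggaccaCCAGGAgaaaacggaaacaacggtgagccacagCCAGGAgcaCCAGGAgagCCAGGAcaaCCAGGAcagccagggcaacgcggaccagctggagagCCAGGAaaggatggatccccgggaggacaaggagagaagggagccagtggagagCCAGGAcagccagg
cmk-1 intron repeat window: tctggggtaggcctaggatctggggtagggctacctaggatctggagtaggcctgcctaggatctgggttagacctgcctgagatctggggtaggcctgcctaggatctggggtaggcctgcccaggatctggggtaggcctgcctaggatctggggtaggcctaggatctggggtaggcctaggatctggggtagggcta
tandem repeat window: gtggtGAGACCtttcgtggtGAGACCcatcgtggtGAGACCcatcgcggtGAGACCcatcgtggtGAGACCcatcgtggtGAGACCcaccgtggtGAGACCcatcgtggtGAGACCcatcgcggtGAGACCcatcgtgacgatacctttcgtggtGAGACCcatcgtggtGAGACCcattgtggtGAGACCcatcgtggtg

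The members had a mean G plus C share of 58.4% ± 3.18 (SD, n = 1238 regions), from 55.2 to 74.6%, against 38.4% ± 6.66 in the 70309 other ranked regions. Of the members, 299 reached 60%, 60 reached 65% and 12 reached 70%. The mean was 53.3% when the window reached 200 bp to either side of the same summits, and 59.4% when it reached 50 bp. At the threshold, the 163 regions just inside (55.2% G plus C) had a median joint signal of 29.3 and 4 were in the conservative list. The next 131 inside (55.7%) had a median of 25.7, with 1 in that list. The 206 regions just outside (54.7%) had a median of 26.9, with 1 in the list, and the 198 beyond them (54.2%) had 27.02, with 3. These 4 steps show no jump in 1 direction at the threshold.

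GC-rich regions ranked higher than the others in the signals of both replicates. The joint signal, the value that the authors give the region as a whole, had a median of 29.1 in members (quartiles 21.7 and 37.2, range 2.45 to 547) and 22.9 in the other regions (quartiles 16.97 and 29.4), a ratio of 1.27. The first replicate signal had medians of 14.5 and 12.3 (ratio 1.18), and the second replicate signal medians of 16.4 and 11.9 (ratio 1.38). The quartile ranges overlapped widely in each of the 3 signals. The median member stood above 73.7% of all ranked regions by joint signal, and members made up 8 of the 100 strongest regions, 68 of the 1000 strongest and 413 of the 10000 strongest.

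The rise ran along the whole range of base composition rather than starting at the threshold. The median joint signal was 18.02 in windows under 25% G plus C, 22.8 at 35 to 40%, 27.01 at 50 to 55%, 28.95 at 55 to 60% and 29.95 at 60 to 65%, with 28.2 in the 60 windows of 65% and over. The first replicate signal went from 11.0 in the lowest bin to 15.4 at 60 to 65%, and the second replicate signal from 8.96 to 17.02. The signals had floors: the lowest first signal was 8.34 in members and in other regions. The lowest second signal was 2.07 in members and 2.00 in other regions, and the lowest joint signal 2.45 and 2.00. The median ratio of the second to the first was 0.780 in the lowest bin, 1.04 at 50 to 55% and 1.08 at 55 to 60%. It was 1.08 at 60 to 65% and 0.964 in the 60 windows of 65% and over. Over all members this ratio was 1.08, against 0.921 in the other regions. Depth is unknown for both libraries, and neither its part nor that of the floors in this ratio was tested.

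**Figure D1:**
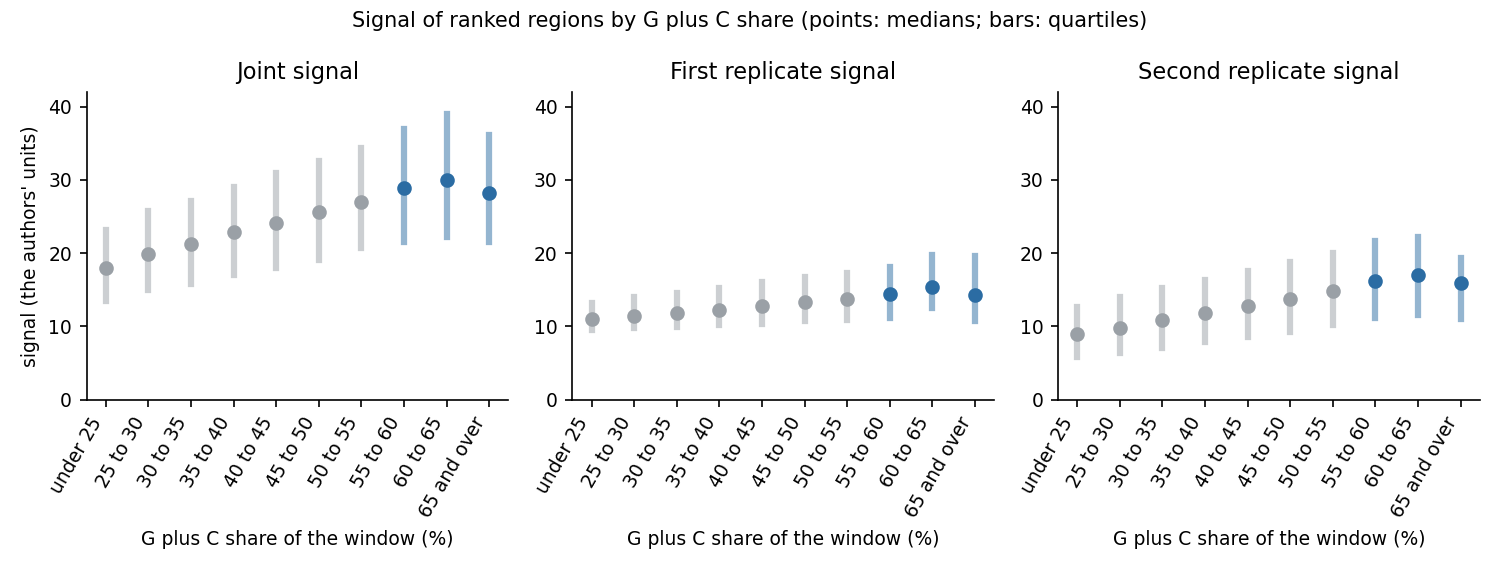
Median (points) and quartiles (bars) of the joint, first replicate and second replicate signals, in the authors' units, of all ranked regions in bins of the G plus C share of the window; blue bins are the GC-rich members. The joint median climbed from 18.02 in the lowest bin to 29.95 at 60 to 65%, and the first replicate signal went from 11.0 to 15.4 and the second from 8.96 to 17.02 over the same bins.

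Within the members the signals of the replicates were loosely related. The rank correlation of the first and second signals was 0.24 across 1238 members and 0.19 across the other regions. These points come from the same pair of libraries and share their base composition, so the values are descriptions. The median size of the log2 ratio of the 2 signals was 0.52 in members and 0.54 elsewhere. Of the members, 213 (17.2%) carried a first replicate interval that another ranked region also carried, and 113 (9.13%) such a second replicate interval. Over all ranked regions the shares were much the same, 17.3 and 10.4%. The signal of a shared interval is not a region's own measurement. The first signal, with its interval, was found in the ranked list of replicate 1 for 74.4% of members. The second was found in that of replicate 2 for 68.3%, with no match the other way round. Over all ranked regions these shares were 61.5 and 47.0%.

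Genome sequence of the same composition entered the ranked list more often than other sequence. Of 498866 adjoining tiles of the genome, as wide as the windows, 3596 (0.721%) reached the same G plus C share, and 57.1% of these overlapped a ranked region (interval 55.5 to 58.7%), against 29.5% of the other tiles. The share climbed with each bin, from 13.1% of tiles under 25% to 62.7% of tiles of 65% and over. Repeated tiles, in which over 50% of the 31-base words occur at 2 or more places in the genome, entered less often at either composition. In GC-rich tiles the values were 61.7% of unique and 40.4% of repeated ones, and in other tiles 30.7% and 15.7%.

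The authors' conservative thresholded list, each entry of which has the interval of a ranked region, held 25 members (2.02%, interval 1.37 to 2.96%). The background was 281 of all ranked regions, or 0.393%, and 0.364% of the other regions. The 25 were the same members as those with a global irreproducible discovery rate (IDR) of 0.01 or lower, a level that 0.534% of all ranked regions reached. The authors' other thresholded list of both replicates, here called pooled, overlapped 33 members (2.67%) against 0.621% of all regions. The thresholded list of replicate 1 overlapped 9 members (0.727%) against 0.129% of all, and that of replicate 2 overlapped 8 (0.646%) against 0.131%. At least 1 of the 4 lists held 38 members (3.07%), and 7 (0.565%) were in the lists of both single replicates. The shares over all ranked regions were not computed for these combinations, so neither count can be read as high or low.

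The share in the conservative list also rose with composition, from 0.0796% of regions under 25% and 0.0624% at 25 to 30% to 0.881% at 50 to 55%, 2.02% at 55 to 60% and 2.51% at 60 to 65%. None of the 60 regions of 65% and over was in the list, which allows a share of up to 5%. In unique sequence the share was 2.06% of 1067 members and 0.333% of the other regions. Within coding promoters it was 5.26% of 228 members (interval 3.04 to 8.97%) against 0.701%, and in coding sequence 0.671% of 447 members (interval 0.229 to 1.95%) against 0.134%.

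**Figure D2:**
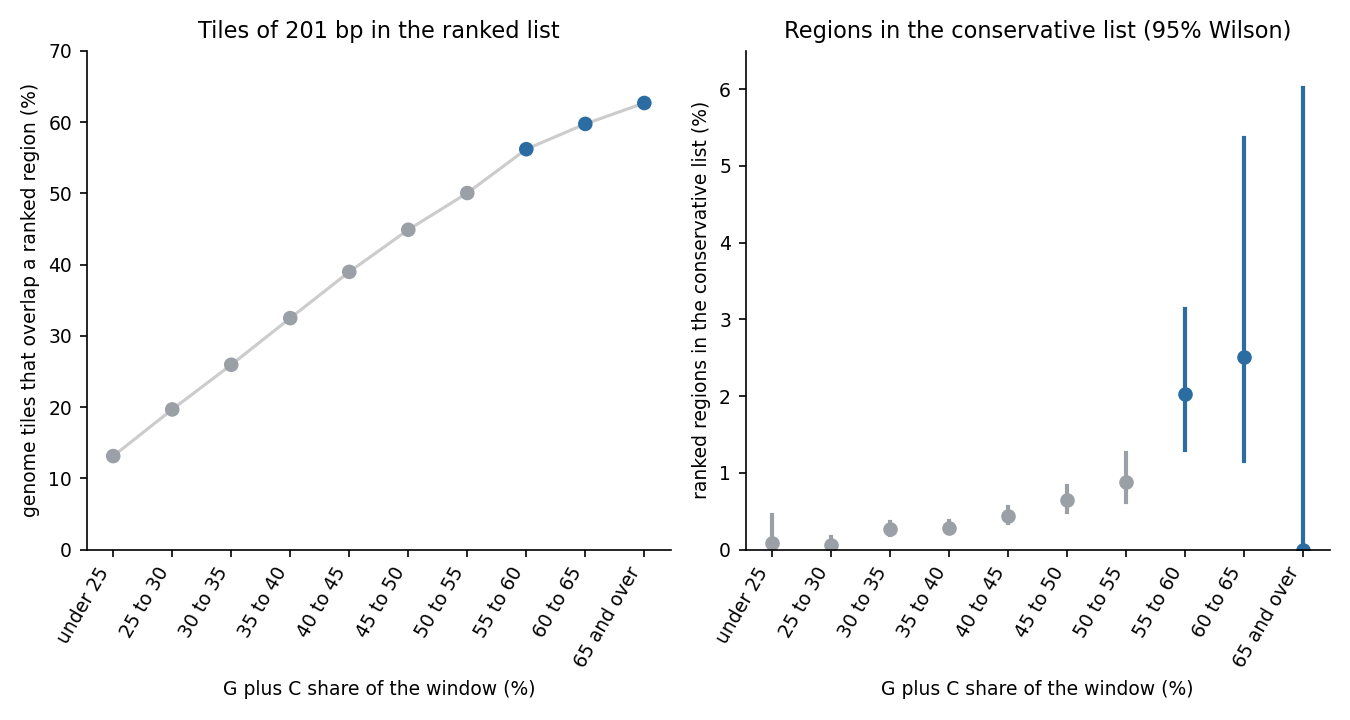
Left, percent of genome tiles of window width that overlap a ranked region by G plus C share; right, percent of ranked regions in the conservative list with 95% Wilson intervals; blue marks 55% and over. The tile share rose from 13.1 to 62.7%, and the conservative share from 0.0796% to 2.51% before a bin of 60 regions with none.

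The strongest members lay at promoters of coding genes and carried the NF-Y consensus. The strongest (chrII:5660977-5661211, 55.2% G plus C), between mdt-26, a Mediator subunit gene, and ift-43, an intraflagellar transport gene, had a first signal of 225, a second of 332 and a joint signal of 547. The next, at hsp-3, the gene of an Hsp70 in the endoplasmic reticulum (ER), had 96.9, 178 and 276, with its summit 55 bp before the gene start. The one after it, at the calreticulin gene crt-1, had 97.3, 167 and 257, with its summit 270 bp before the start. In each of the 3 the second signal was the higher, and all 3 were in the thresholded lists of both replicates. Their summits lay 5 to 15 bp from the consensus printed above.

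Below these the signals dropped to 125 and less, and the consensus was mostly absent. The promoter of tasp-1, a taspase gene, had signals of 62.2 and 61.9 and a joint signal of 124. The shared promoter of set-16, which encodes a histone H3 lysine methyltransferase, and drr-2 had 34.4 and 66.98. The promoter of cnk-1, which encodes a scaffold of Ras signalling, had 38.1 and 62.5. That of egl-30, which encodes a Gq alpha subunit, had 52.3 and 33.3. All 4 windows held CGCGC and none the consensus. The other coding promoters were those of Y54G11A.2 (joint signal 72.1), kdp-1 with csn-6, a COP9 signalosome subunit gene (67.7), ntl-2, a CCR4-NOT subunit gene (61.1), asp-18, an aspartyl protease gene, with scl-19 (58.6), and F12F6.1 (56.5). At kdp-1 and asp-18 the window held neither CGCGC nor CCAAT.

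The 6 conservative members in promoters of non-coding genes all lay at genes for small or structural RNAs. A region at rpr-1, the RNase P RNA gene inside ints-8, had signals of 49.6 and 75.8. Regions at the snoRNA genes Y43F8C.22, W03C9.9, Y37E3.20 and W08G11.6 had joint signals of 81.8, 80.1, 78.4 and 62.6. A region over sup-6, annotated as an snRNA gene, had 61.6. All 6 held CGCGC and none the consensus, and snoRNAs are small RNAs that guide modification of other RNAs. Across all members, 12 windows (0.969%) overlapped a tRNA, rRNA, snRNA or snoRNA gene, of which 5 were conservative. The share was 0.762% in other ranked regions and 1.00% in GC-rich tiles, and 30 of the 256 other conservative regions (11.7%) overlapped such a gene.

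The other 7 conservative members lay within genes or between them. In coding sequence they were at R02F2.1 (66.8, with the consensus 19 bp from the summit), the actin gene act-4 (64.1) and the collagen gene col-124 (61.5). In introns they were at cmk-1, a calmodulin-dependent kinase gene (111), Y56A3A.28 (62.9) and srg-64, a chemoreceptor family gene (55.1). The intergenic one (60.2), 3486 bp from the start of Y57G11A.4, held the consensus 83 bp from its summit. Repeated words made up over 50% of the window at 3 of the 25, namely the cmk-1, act-4 and intergenic regions. Of the 15 strongest members, 13 were conservative. The remaining 2 were in the pooled list: the tandem repeat printed above (20.4, 53.3 and 74.5) and a region in his-24, which encodes a linker histone (21.1, 45.5 and 67.9).

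The second signal exceeded the first at 19 of the 25. The 3 strongest stood apart from the remaining 22, whose joint signals ran from 55.1 to 125 without a gap of that size. The list was made by comparing these replicates, so how alike the signals are here is a description only.

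**Figure D3:**
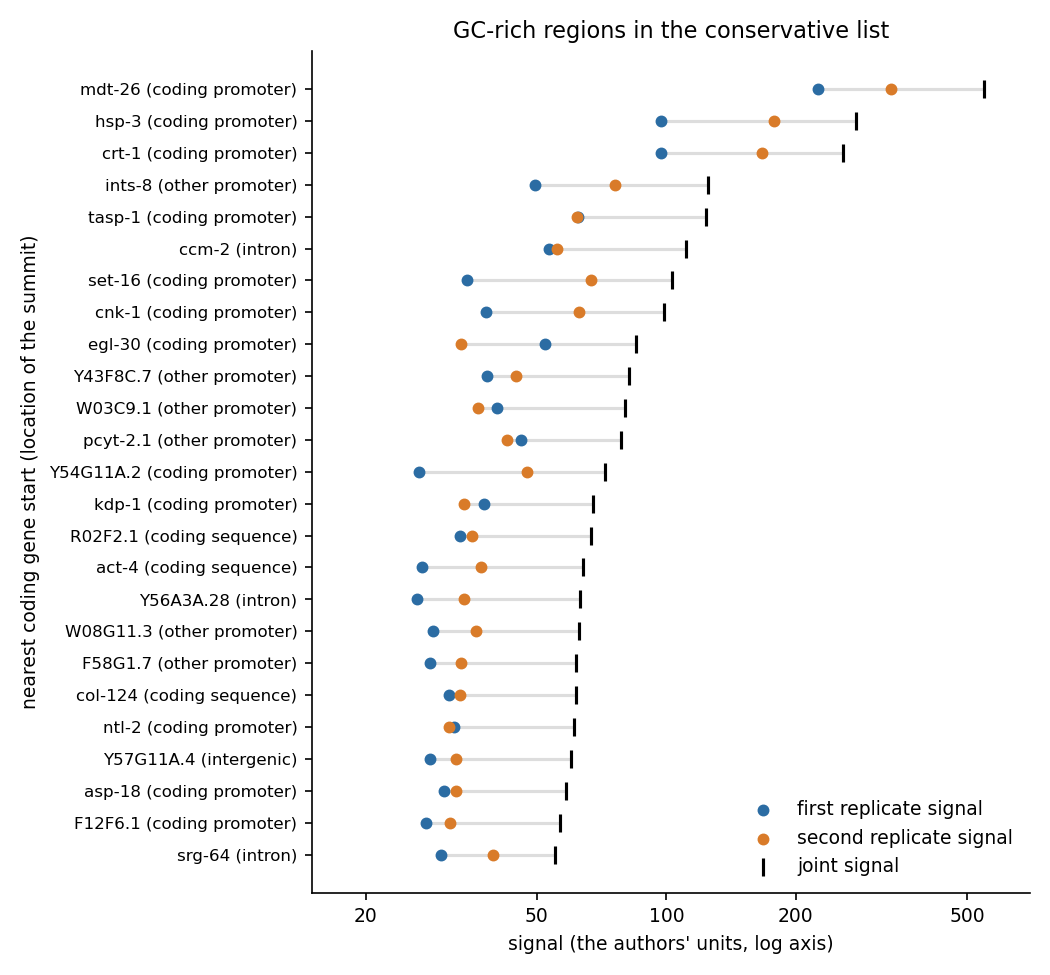
First (blue) and second (orange) replicate signals and joint signal (black tick), in the authors' units on a log axis, of the 25 GC-rich regions in the conservative list, named by the nearest coding gene start and the location of the summit. The regions at mdt-26, hsp-3 and crt-1 lie apart at 257 to 547, and the other 22 between 55.1 and 125.

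The location shares of members lay closer to those of GC-rich genome sequence than to those of the other ranked regions in most classes. Each summit was placed once, in the order given by the classes, with a promoter taken as the 1000 bp before and the 200 bp after a gene start. Coding sequence held 36.1% of member summits (447 of 1238, interval 33.5 to 38.8%), 24.4% of other ranked summits and 37.8% of GC-rich tiles. Coding promoters held 18.4% of members (16.4 to 20.7%), 21.7% of other ranked summits and 16.9% of GC-rich tiles. Promoters of non-coding genes held 14.9, 12.6 and 14.2% in the same order. Introns held 16.5, 23.0 and 16.4%, intergenic sequence 11.5, 14 and 12.2%, UTRs 1.05, 2.79 and 0.973%, and non-coding exons 1.62, 1.50 and 1.47%.

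The conservative members were placed otherwise. Coding promoters held 12 of the 25 (48%, interval 30.03 to 66.5%) and other promoters 6 (24%), against 3 in coding sequence (12%, 4.17 to 29.96%). None lay in a UTR or a non-coding exon, which allows up to 12% for each. Among the 256 conservative regions that are not GC-rich, coding promoters held 41.8%. The median summit in a coding promoter lay 392.5 bp from the gene start in members, 314 bp in the other regions and 135.5 bp in the conservative members.

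**Figure D4:**
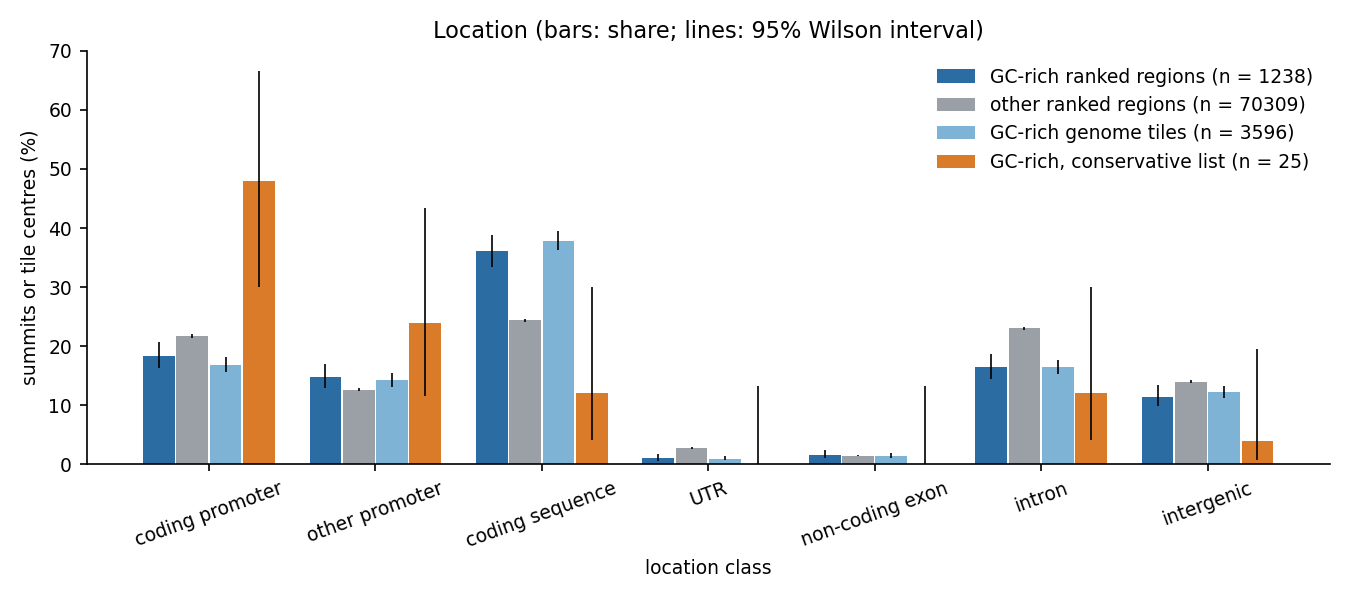
Percent of summits, or of tile centres, in each location class, with 95% Wilson intervals, for GC-rich ranked regions, other ranked regions, GC-rich genome tiles and the GC-rich regions of the conservative list. Members and GC-rich tiles have like shares, with 36.1 and 37.8% in coding sequence, while 48% of the conservative members lie in coding promoters.

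The higher signal of members held in each location class. The ratio of median joint signals, members over other regions, was 1.26 in coding promoters (28.95 against 23.03), 1.35 in other promoters, 1.20 in coding sequence (28.6 against 23.8), 1.24 in introns, 1.39 in intergenic sequence, 1.26 in non-coding exons (20 members) and 1.58 in UTRs (13 members). The ratio was above 1 for the first and for the second replicate signal in each of the 7 classes. It was 1.28 in unique and 1.26 in repeated sequence.

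Almost 49% of members lay on a coding base when promoter position is ignored (602 of 1238, 48.6%, interval 45.9 to 51.4%). Collagen genes, which encode the triple-helical proteins of cuticle and basement membrane with glycine at regular steps and much proline, took 140 of these. That is 11.3% of all members (interval 9.66 to 13.2%), against 0.169% of other ranked regions, and 10.9% of GC-rich tiles. Of 177 collagen genes, 109 (61.6%) had a member within the gene and 155 had a GC-rich tile, against 763 and 1557 of 19973 coding genes (3.82 and 7.80%). A single member lay in each of 81 of the 109, 26 had 2, and 2 had 3 or more. Promoters of 2 of the 177 collagen genes held a member (1.13%, interval 0.310 to 4.03%), near the 1.24% of all coding genes.

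The codons of collagen members were G and C rich at the first and second positions. Over their 9215 codons, G and C made up 82.0% of first, 73.1% of second and 27.1% of the third positions, with glycine at 28.9% and proline at 22.1% of codons. In the members of other coding sequence the positions had 65.97, 57.5 and 51.7%, with glycine at 11.2% and proline at 11.4%. The other ranked regions in coding sequence had 51.3, 40.03 and 40.5%, with 5.60 and 5.22%. CCAGGA, read on either strand, stood in 134 of the 140 collagen windows (95.7%) and in 22.3% of all members, 5.82% of other ranked regions and 19.8% of GC-rich tiles outside ranked regions.

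The signal of collagen members was like that of other GC-rich coding sequence. Their joint signal had a median of 29.5 (quartiles 22.1 and 36.5, highest 61.5), against 28.7 (21.06 and 36.5, highest 67.9) in the 462 members in other coding sequence. The first signals were 14.5 and 14.2 and the second 16.7 and 16.3. The 119 ranked regions in collagen coding sequence below 55% G plus C had a median of 23.9, close to the 23.8 of the other ranked regions in coding sequence. The strongest were those in col-124 (31.2 and 33.1), col-89 (33.3 and 26.3), col-156 (26.8 and 26.8) and col-34 (10.4 and 38.6). At col-34 the replicates differed by far more than at the other 3. Only the col-124 region was in the conservative list.

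Repeats made up another part of the members. Over 50% of the 31-base words occurred elsewhere in the genome in 171 members (13.8%, interval 12 to 15.8%), 3.84% of other ranked regions and 21.6% of GC-rich tiles. By the 31-base words, intergenic members were repeated most often (53 of 142, 37.3%) and members in coding sequence least among the larger classes (20 of 447, 4.47%). Windows that matched themselves at over 80% of bases after a shift of 2 to 60 bases, and are thus tandem repeats, numbered 80 members (6.46%) and 0.576% of other regions.

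Members that share a 31-base word were joined into families, and 247 members fell into 50 families of 2 or more. The largest held 63 members (5.09%), of which 33 were intergenic, 18 in introns and 12 in promoters, with none in coding sequence. Its commonest 31-base word occurs at 505 places in the genome, and every one of the 63 windows held GAGACC on a strand. Of 604 gaps between neighbouring copies of GAGACC, 525 were of 15 bases and 68 of 30, and in the printed window 10 of 11 gaps were of 15 bases. The joint signal in the family had a median of 30.3 (range 4.17 to 74.5), the first 15.3 and the second 16.3, near the values of all members. One of the 63 was in the conservative list. The families that follow held 19, 19, 17 and 12 members, with median joint signals of 32.8, 28.8, 30.96 and 27.5. Reads from repeats can be placed at several copies, and how the authors placed them was not given in the sources used here.

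Among the 512 strand-merged words of 5 letters, 432 occurred 200 or more times in members. Counts were compared with those that the dinucleotides of the same windows give and with counts per window in the 1542 GC-rich tiles outside ranked regions. The 10 highest against the dinucleotides were ACCAC (3.49 times), CACCA (3.34), ACGAT (2.52), CCACC (2.42), AAAAA (2.35), CAGGA (2.16), CTCCA (2.14), CCACG (2.14), AAAAT (2.05) and CACGA (2.00). Against tiles these had ratios of 0.770 (CACGA) to 1.18 (CCACC). The words that stood out from the dinucleotides were thus near the level of GC-rich sequence that was not ranked. Read on the other strand, the tandem repeat above holds 5 of these words, namely the leading pair, ACGAT, the word with a ratio of 2.14 that ends in G, and CACGA. The collagen word holds CAGGA. Without repeated regions and collagen coding sequence, ACGAT fell to 1.23 and CAGGA to 1.04, while CCACC stood at 2.70 and ACCAC at 2.51.

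Against the GC-rich tiles outside ranked regions the 5 highest words were CCCTA (1.41 times), TTCAA (1.29), CCCGG (1.28), GGACC (1.26) and CTCCC (1.26). Of the 432 words, 414 had counts within 1.25-fold of the tiles, and the range was 0.687 to 1.41. Without repeated regions and collagen coding sequence in both sets the range was 0.774 to 1.62, with CCCTA at 1.62, CTACC at 1.54 and CGGTA at 1.46. The observed over expected ratio of CpG was 0.894 in members, 0.944 in the other regions, 0.901 in the same GC-rich tiles outside ranked regions and 0.989 in the 25 conservative members. It was 0.961 in members without collagen or repeated sequence and 0.971 in tiles without them.

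**Figure D5:**
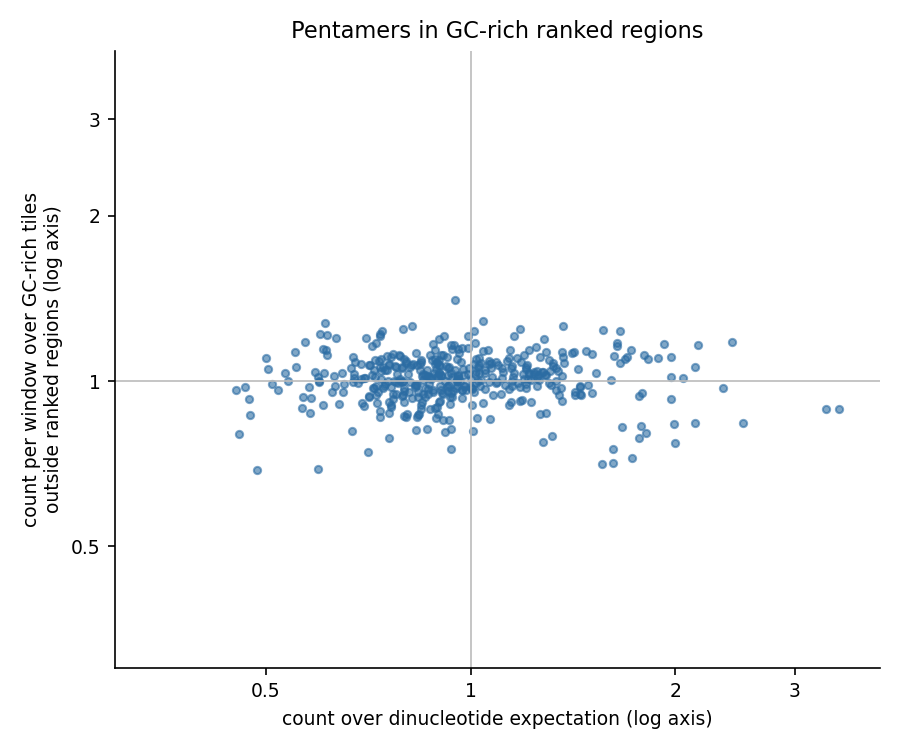
Each point is 1 strand-merged word of 5 letters with 200 or more occurrences in members; the x axis gives its count over the dinucleotide expectation and the y axis its count per window over that in GC-rich genome tiles outside ranked regions, both on log axes. Words spread from 0.451 to 3.49 along x but only from 0.687 to 1.41 along y.

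CCAAT was less frequent in members than in other ranked regions, and about as frequent as in GC-rich tiles that were not ranked. The core CCAAT, searched on both strands, stood in 25.2% of members (312, interval 22.9 to 27.7%), 38.0% of other regions and 25.6% of the 1542 GC-rich tiles outside ranked regions, the tiles to which all words are compared. The extended NF-Y consensus is CCAAT preceded by a pair of purines and followed by C or G and then a purine. It stood in 37 members (2.99%, 2.18 to 4.09%), 2.63% of other regions and 2.92% of these tiles. Among members in coding promoters the share was 6.14% (14 of 228, 3.69 to 10.04%) against 2.25% of other ranked regions there.

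Members with the consensus were in the conservative list more often than those without it: 5 of 37 (13.5%, 5.91 to 27.98%) against 20 of 1201 (1.67%, 1.08 to 2.56%). In the other ranked regions the shares were 1.41 and 0.336%. The median joint signals of members with and without it were 30.4 and 29.1. In the 5 conservative members the consensus lay at a median of 15 bp from the summit, and within 20 bp at 4 of them. In the other 32 it lay at a median of 42.5 bp, close to the 42 bp of the 1849 other ranked regions that hold it.

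CGCGC overlaps itself and counts once per window here. It stood in 355 members (28.7%, interval 26.2 to 31.3%), 8.75% of other ranked regions and 25.7% of GC-rich tiles outside ranked regions. Of the 25 conservative members 16 held it (64%, 44.5 to 79.8%), against 25% of the 256 other conservative regions. The word was already known as a leading one of the conservative list, so this is not independent support. Members with CGCGC were conservative at 4.51% (16 of 355) and those without it at 1.02% (9 of 883). In coding promoters these were 9 of 84 (10.7%, 5.74 to 19.1%) and 3 of 144 (2.08%, 0.711 to 5.95%). CGCGC without the consensus stood in 14 of the 25, and neither CGCGC nor CCAAT in 5. The related words CACGC and ACGCG, which overlap CGCGC by up to 4 letters, stood in 15 and 14 of the 25 and in 28.3 and 21.7% of all members.

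Among the other words, GAGAG and CACGTG stood more often in members than in the GC-rich tiles outside ranked regions, and the rest had like shares in both. GGGCGG, the GC box, stood in 15.8% of members and 16.7% of these tiles. CACGTG, the E-box, stood in 7.92% of members (interval 6.54 to 9.55%) and 5.58% of tiles (4.54 to 6.84%). CACGTG was in none of the 25 conservative members, which allows up to 12%. GAGAG stood in 39.1% of members (36.4 to 41.8%), 33.7% of tiles (31.3 to 36.05%) and 17 of the 25. None of these differences was tested. GGTTCGA, a word of the internal tRNA promoter, stood in 2.58% of members and 2.14% of tiles. Words of A and T are rarer by the rule itself: TTTTTT stood in 8.08% of members, 9.01% of tiles and 51.8% of other ranked regions. GATAA, the GATA factor word, stood in 12.1%, 11.2% and 35.4% in the same order.

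Among the 26 gene lists, the ER chaperone and unfolded protein response list had the highest share of genes with a member at the promoter. This was so at 5 of 29 genes (17.2%, interval 7.60 to 34.5%), against 248 of 19973 coding genes (1.24%). A GC-rich tile lay at the promoter in 4 of the 29 (13.8%), against 2.92% of coding genes. The gene lists were chosen with earlier results of these data known, so the place of this list is not independent support. The strongest were hsp-3, crt-1 and pdi-2, a protein disulfide isomerase gene (30.8, 18.4 and a joint 49.9), and 2 of the 5 were conservative. pdi-3, of the same enzyme family, had a member in an intron (11.6, 20.5 and 29.0).

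Genes of muscle and cytoskeletal proteins had members within the gene in 8 of 37 cases (21.6%), against 3.82% of coding genes. GC-rich tiles lay in 11 of the 37 (29.7%), against 7.80% of coding genes. The strongest lay in the actin gene act-4 (27.02 and 37.1), the myosin light chain gene mlc-7 (25.8 and 24.6), act-5 (22.2 and 22.1) and the tubulin gene tba-2 (15.7 and 20.7). Of translation factors 4 of 40 had one and 9 a GC-rich tile (22.5%). The members were in eef-1B.2 (joint 49.7), eif-4A3 (46.7), eef-1B.1 (41.8) and eif-3.I (33.2). Ribosomal protein genes had 5 of 80 (6.25%) and a tile in 13 (16.2%), among the former rpl-19 (38.6), rps-2 (36.0), rps-22 (33.2) and rpl-31 (18.9), and 1 of 80 at the promoter. None of these except act-4 was conservative.

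Of histone genes, 5 of 82 (6.10%) had a member at the promoter, against 1.24% of coding genes. A GC-rich tile lay there in 23 of 82 (28.0%), against 2.92% of coding genes. Because 1 region can count for neighbouring histone genes, these are counts of genes and not of separate regions. The strongest regions in the list were those in the linker histone genes his-24 (67.9) and hil-4 (50.8), followed by the region shared by his-5 and his-6 (23.0). Germ granule genes had 3 of 44 in the gene, mex-1 (43.9), pgl-1 (33.9) and pgl-3 (6.98), and none at the promoter. Of vitellogenin genes, vit-2 had one (21.06, 25.2 and a joint 48.03). Proteasome genes had pbs-1 (47.5) and rpn-1 (35.6) in the gene and rpn-12 (14.1) at the promoter. Chaperone genes of the cytosol had dnj-19 (53.7), cct-7 (22.9) and cdc-37 (20.9), the last also of the cell cycle list, in which mcm-2, a replicative helicase gene, had 41.5. Glycolysis genes had pyk-1 (33.1) and aldo-1 (30.6), and aminoacyl-tRNA synthetase genes nars-2 (36.6) and qars-1 (36.1). Respiratory chain genes had ucr-2.2 (30.3) and cox-6B (28.4). The cox-6B region lay far after the gene start, in the promoter window of another coding gene. Its link to cox-6B rests on the annotated span of that gene alone. None of the regions named in these sentences was conservative.

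The share of all coding genes with a member, 3.82% in the gene and 1.24% at the promoter, is the background for the large gene families. Chemoreceptor genes had a member in 18 of 1365 genes (1.32%, interval 0.836 to 2.07%), led by srg-64, srh-298 (47.5) and srz-95 (41.4), with sri-67 (41.1) at the promoter. Nuclear hormone receptor genes had 9 of 273 (3.30%, interval 1.74 to 6.15%) in the gene, led by nhr-51 (45.1) and daf-12 (43.7), and 4 at the promoter, led by nhr-47 (53.7, the region in dnj-19) and nhr-247 (52.6). C-type lectin genes had 4 of 240 (1.67%) in the gene and 3 at the promoter, with clec-246 (37.5) and clec-172 (32.0) in the gene and clec-123 (45.9) and clec-260 (41.1, shared with sri-67) at the promoter. F-box genes had 2 of 322 (0.621%) in the gene, which were fbxa-188 (39.8) and fbxa-139 (36.1), and 3 at the promoter, led by fbxb-106 (40.4) and fbxa-189 (the region in fbxa-188). Homeobox genes had 4 of 88 (4.55%, interval 1.78 to 11.1%) in the gene, ceh-22 (49.5), ceh-9 (37.2), cog-1 (24.5) and the Hox gene mab-5 (23.1). Neuropeptide genes had nlp-25 (36.3) at the promoter and nlp-40 (28.8) in the gene, of 141. Of 31 major sperm protein genes none had a member, which allows up to 9.68%.

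Small RNA genes had members at the promoter in shares whose intervals overlap for snoRNA, tRNA and snRNA genes. The share was 12 of 346 snoRNA genes (3.47%, 1.99 to 5.96%), of which 4 were conservative, and 13 of 612 tRNA genes (2.12%, 1.25 to 3.60%) with none conservative. It was 1 of 129 snRNA genes (0.775%, 0.137 to 4.26%), sup-6, which was conservative. Over all genes the share was 1.25%. The strongest region in a tRNA promoter window had signals of 19.7 and 18.5 and a joint signal of 41.3, with its summit 975 bp before the gene. Within the gene itself, 1 of the 612 tRNA genes had a member. Of 15363 piRNA genes, 61 (0.397%) had a member within the promoter window, led by 21ur-7348 (59.7) and the region shared by 21ur-7366 and 21ur-7659 (52.9). No member lay at an rRNA gene promoter among 20 (up to 15% allowed), although 12 of the 20 have a GC-rich tile there.

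The genes of NF-Y itself had no member nearby. Within 2000 bp of nfya-1, nfya-2, nfyb-1 and nfyc-1 lay 6, 7, 5 and 4 ranked regions, of which the highest G plus C share was 46.3%, at nfya-2. Members are 1.73% of all ranked regions, so their absence among so few regions says nothing particular of these genes. The nearest members lay 8159, 3135, 9338 and 60345 bp away, with joint signals of 41.3, 31.3, 29.95 and 33.7.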

How the data were processed

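Per the labels, the 2 libraries are biological replicates of 1 group of tagged young adult worms. The authors deposited peak lists on assembly ce11, per the text that accompanies the files and names a control as an input, with a signal per region in units of their peak caller and −log10 of the global IDR. Which aligner and caller were used is not given in the sources used here, and depth is unknown. The deposited ranked list gives a joint signal and 1 signal per replicate, here called first and second. Windows, words and tiles of window width were read from WBcel235, and genes came from Ensembl release 115. Each signal describes and ranks regions within its list. Sequence counts were tested on simulated data. Shares carry 95% Wilson intervals, and no test over regions was run. A share of 0 is given with the limit that 3 counts allow. Overlap with a thresholded list needed 1 shared bp, and regions of the conservative list had the same interval. Repeated sequence was defined by 31-base words. Named are the 15 strongest members, all conservative members, up to 4 members per gene list by signal, the 10 and 5 leading pentamers, the NF-Y genes and the members of small counts. The members and gene lists were chosen with earlier results of these data known. Python 3.11.15 with numpy 2.4.6, pandas 2.3.3, scipy 1.17.1 and matplotlib 3.10.9 was used. Alternatives changed the threshold, window, list, repeats, small RNA genes, clusters, promoter and replicate.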

Additional observations from a re-analysis of the deposited data

How the results depend on the processing

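Of 68 recomputed values, 45 stayed within the counting interval of the reported value or, for the signal ratio, within 1 SD of its values in the single replicates. The signal ratio, reported as 1.27, lay between 1.18 and 1.41 under all 12 alternatives and was thus above 1 in each. Its values for a single replicate, 1.18 and 1.38, set that SD, so they say nothing of stability. The percentages have no direction that could change. The percent of ranked regions that are GC-rich was 6.33% at a threshold of 50%, 0.418% at 60%, 3.95% in a window reaching 50 bp to either side, 0.692% in one reaching 200 bp, 1.32% in the other ranked list and 1.55% without repeated regions. The percent in the conservative list was 1.19% at a threshold of 50%, and 0.646 to 0.727% when it was replaced by the thresholded list of a single replicate. The percent of summits in a coding promoter was 21.9% with the narrow window, 12.3% with the wide one and 7.75% with a promoter from 500 bp upstream to 100 bp downstream. That in coding sequence was 31.7% with the narrow window, 45.9% with the wide one, 40.02% without repeated regions and, in an alternative chosen after seeing the data, 31.9% without collagen. The CpG ratio was 0.915 at 50%, 0.827 at 60%, 0.929 in the narrow window, 0.777 in the wide one and 0.961 without collagen and repeated regions, the last also chosen after seeing the data. The consensus stood in 1.87% of narrow and 5.45% of wide windows, which hold fewer and more bases. The cause of the other shifts was not tested. Wide windows keep 34.7% of the members and narrow ones 84.6%. With windows of unique sequence alone, the conservative share remained above that of the other regions (2.06 against 0.333%). No paired analysis was possible because the replicates belong to 1 group. Without counts of reads, the precision of single signals is unknown, and no untagged sample shows the signal that GC-rich sequence gives without the tagged protein.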

Other observations

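The members were spread over the nuclear chromosomes in like shares, from 1.55% of ranked regions on chromosome V to 1.93% on chromosome II. The share of GC-rich tiles ran from 0.619% on X to 0.880% on chromosome II. The ratio of median joint signals, members over other regions, was 1.20 on chromosome I and 1.41 on X, where the second replicate signal had a ratio of 1.57 and the first 1.24. The ratio was above 1 on each of the 6 chromosomes in both replicate signals.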
